A study of Homo sapiens with 18 samples.

Results

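Expression of 7 genes, the guanylate-binding protein genes GBP1, GBP2, GBP3, GBP4 and GBP5 together with CIITA and SOCS1, was followed in OVCAR3 cells given different antibodies. OVCAR3 is an established cell line from a human ovarian carcinoma of the high-grade serous type. It carries the polymeric immunoglobulin receptor, which transports IgA across epithelial cells. The genes were taken by symbol from the count tables, and all 7 of them, of 55765 symbols, passed the filter on low counts in both tables. The libraries numbered 18, in 2 series of 9, and each series had 3 groups of 3 replicates. In the first series the cells received IgA of no particular specificity (natural human IgA), IgG of no particular specificity, or no antibody. In the second they received IgA directed at BDNF, IgA directed at TSPAN7, or no antibody. Each antibody was given at 0.5 µg/ml. The sample descriptions give 24 h of exposure, and a supplementary description a shorter time. The antigen-specific IgA was purified from the medium of virus-immortalised B cell clones derived from tumours, and the second series held no IgA of irrelevant specificity, so that antigen and antibody source cannot be told apart there. Groups were compared only within a series. Nothing in the labels says that replicates were separate cultures, and the p-values measure the spread between these libraries.

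Guanylate-binding proteins are large GTPases that are induced by interferons, most strongly by interferon gamma, and that assemble on pathogen vacuoles and bacterial surfaces and promote inflammasome activation. CIITA is the transactivator that switches on the MHC class II genes. It does not bind DNA itself but is recruited to their promoters by the RFX complex. SOCS1 is an inhibitor of JAK kinases that is induced by cytokine signalling and limits it. All are textbook targets of interferon gamma, which acts through its receptor, the kinases JAK1 and JAK2 and transcription factors such as IRF1.

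The GBP genes lie in 1 cluster on chromosome 1 and the other genes lie close together on chromosome 16 (GENCODE on GRCh37). GBP3 spans chr1:89472362-89488577, GBP1 chr1:89517565-89531043, GBP2 chr1:89571815-89616139, GBP4 chr1:89646827-89664625 and GBP5 chr1:89721872-89738543, all on the minus strand. CIITA spans chr16:10960079-11036878 on the plus strand. SOCS1 is a gene of 1 exon at chr16:11348274-11350061 on the minus strand, inside RMI2 but sharing 0 exon bases with it. GBP2 shares 621 exon bases (8.60% of its merged exons) with GBP7 on the same strand, and CIITA shares 2424 (10.75%) with DEXI on the opposite strand. Of the distinct 75-base stretches of the annotated transcripts, between 1.26% and 7.69% of those of a GBP gene, 19.4% of those of CIITA and 0% of those of SOCS1 also occurred in transcripts of another gene. For GBP1 these were mainly shared with its pseudogene GBP1P1 (2.57%) and with GBP3 (0.858%). Reads from these stretches could be lost or assigned to the other gene, and the strand setting of the counting was not stated.

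Promoter sequences are shown for the 4 of the 7 genes (GBP1, GBP3, GBP4 and SOCS1) that were in the RefSeq promoter table for GRCh38.p14. It gives 250 bases before and 50 after the annotated start. They were searched on both strands for 2 motifs. These were GAAA, any 2 bases, GAAA (the core of the interferon-stimulated response element) and TTC, any 3 bases, GAA (the gamma-activated site). The windows below hold the match to the first motif in capitals, written in the direction of transcription. In the GBP promoters the match is to the reverse complement of the motif.
GBP1, chr1:89065316-89065370, minus strand: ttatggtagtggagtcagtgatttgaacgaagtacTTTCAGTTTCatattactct
GBP3, chr1:89022845-89022899, minus strand: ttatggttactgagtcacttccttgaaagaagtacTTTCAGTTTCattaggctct
GBP4, chr1:89198927-89198981, minus strand: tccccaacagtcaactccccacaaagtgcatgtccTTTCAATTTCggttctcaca
SOCS1, chr16:11256298-11256352, minus strand: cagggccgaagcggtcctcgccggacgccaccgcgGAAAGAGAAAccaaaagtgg
Each of the 4 promoters held 1 match to the first motif, which occurs in 3.57% of 35116 promoters of the same length. It began 127 bases before the start in GBP1, 4 bases before it in GBP4, 113 bases before it in SOCS1, and at the 3rd transcribed base in GBP3. The GBP1 and GBP3 windows were identical at 42 of 55 aligned positions (76.4%), against 19 of 55 for GBP1 and GBP4. A match to the second motif, found in 7.66% of promoters, was present in 1 of the 4, that of GBP3, where it began 15 bases before the start and did not overlap the first. A match is a description of letters and not a site shown to be bound, and the part of these matches in the results was not tested. GBP2, GBP5 and CIITA had no entry.

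The libraries held between 27920733 and 42371474 counts in the first series and between 39254350 and 47381836 in the second. Mitochondrial genes took 19.1% of the counts of non-specific IgA replicate 3 while its 8 companion libraries had between 5.75% and 8.32%. Replicates spread more in the first series (common dispersion 0.0307) than in the second (0.00303). The spread was largest with non-specific IgA. Its replicate pairs had a chi-square per degree of freedom of 74.6 to 259, against 7.12 to 27.7 for the IgG and untreated pairs of the first series. All 8 epithelial and serous carcinoma markers were present in every library, with at least 692 counts. PAX8 had 24340 ± 3100 normalised counts with non-specific IgA, 19280 ± 340 with IgG and 18770 ± 1900 without antibody (SD, n = 3), whereas WT1 had 1976 ± 858, 4472 ± 324 and 4763 ± 326. The means of KRT8, KRT18, KRT19 and CDH1 were also lowest with that IgA. That of MUC16 was highest with it (69350 ± 50700, against 49660 ± 9290 with IgG and 53470 ± 24100 without antibody), and that of EPCAM lay between those of the other groups. Of the B cell list MS4A1, CD79A, CD79B, CD22 and IGJ had at most 19 counts, CR2 had 15 to 124 and PTPRC 6 to 56. PTPRC averaged 37 ± 20.2 normalised counts with non-specific IgA, 18.75 ± 5.67 with IgG and 19.77 ± 5.82 without antibody. The 4 T cell markers had at most 2 counts, and of the 4 myeloid markers CD14 had 9 to 45 and the others at most 18. SDC1, a plasma cell marker that epithelial cells also express (2303 to 7080 counts), supplied most of the sum of the B cell list, which was 122 to 161 CPM (counts scaled to a common library total) with non-specific IgA and 78.9 to 109 in the other first-series libraries. The part of these features in the results was not tested.

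Levels were compared between genes as CPM per kilobase of merged exons. In untreated cells of the second series GBP3 was highest at 7.27 ± 0.402 (SD, n = 3), followed by GBP1 (5.31 ± 0.414), GBP5 (3.08 ± 0.113), GBP2 (1.89 ± 0.0656), SOCS1 (1.12 ± 0.127), GBP4 (0.287 ± 0.0282) and CIITA (0.125 ± 0.0162). The library ranges of neighbours in this order did not overlap, and the order was the same with BDNF IgA and TSPAN7 IgA. In untreated cells of the first series GBP3 (5.97 ± 0.393) and GBP1 (5.73 ± 0.13) overlapped, as did GBP5 (1.98 ± 0.126) and SOCS1 (1.78 ± 0.156), and GBP4 (0.174 ± 0.0686) and CIITA (0.113 ± 0.00502). With non-specific IgA the level of GBP1 was 11.6 ± 1.35 and that of CIITA 0.0296 ± 0.0232, the highest and the lowest of the 7. Merged exons overstate the length of some messages. With the longest coding transcript as the length, GBP1 stood above GBP3 in every group, and CIITA above GBP4 in every group but non-specific IgA. In untreated cells CIITA was then at 0.545 and GBP4 at 0.174 in the first series, and at 0.603 and 0.287 in the second.

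**Figure D1:**
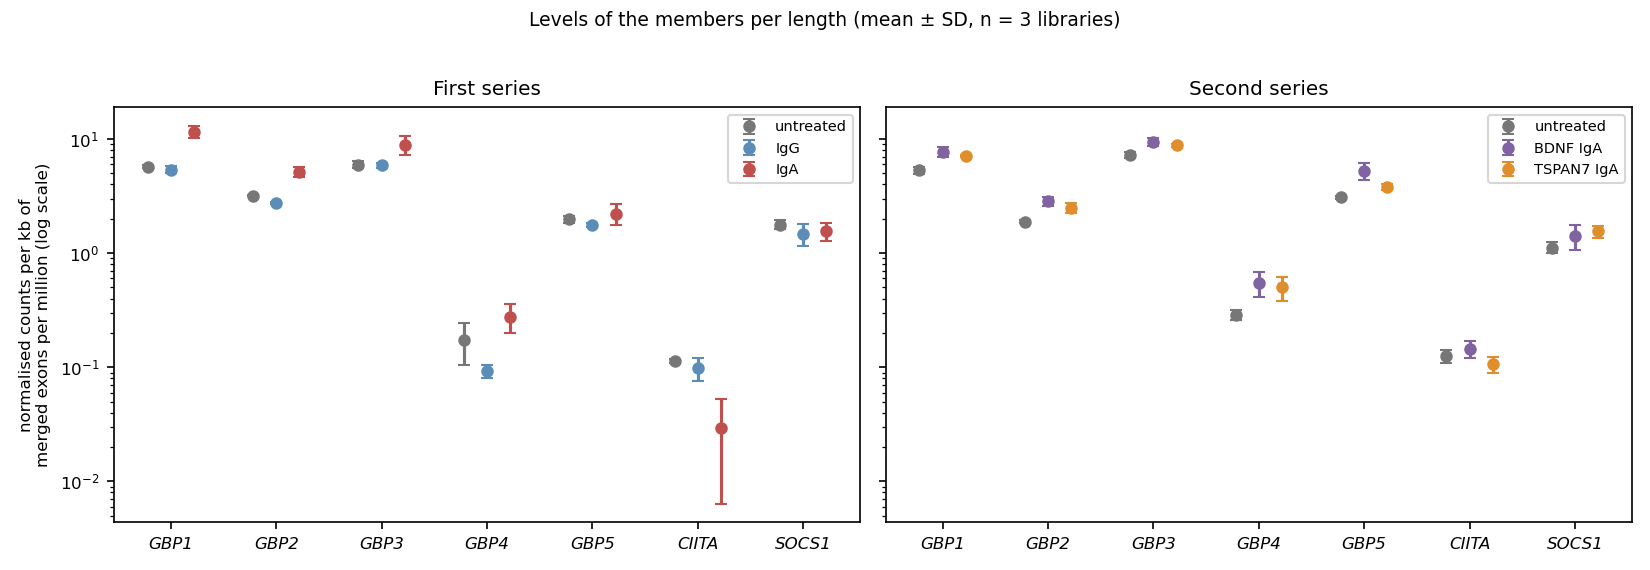
Levels of the 7 genes per length, as CPM per kilobase of merged exons on a log axis, with the first series on the left and the second on the right. Points are means and bars SD of 3 libraries. GBP1 and GBP3 are the most abundant and CIITA and GBP4 the scarcest, and CIITA with non-specific IgA is the lowest value plotted (0.0296).

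Non-specific IgA was compared with IgG, which served as a control antibody of another class. They are separate preparations, so that antibody class and preparation cannot be told apart. Among the 7 genes, 4 were higher (GBP1, GBP2, GBP3 and GBP4), 1 was lower (CIITA), and GBP5 and SOCS1 did not pass the test (two-sided quasi-likelihood test of edgeR, with p-values adjusted over 18012 genes by Benjamini-Hochberg and called under 0.05). Among all genes tested 12.6% were higher and 11.6% lower. Against untreated cells 3 were higher (GBP1, GBP2 and GBP3) and CIITA was again lower, where 12.9% of all genes were higher and 12.1% lower. Both comparisons use the same IgA libraries. The median log2 fold change of the 7 was 0.59 against IgG and 0.57 against untreated cells, and that of all genes -0.02 and -0.01.

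GBP1, which binds lipopolysaccharide on cytosolic bacteria and recruits caspase-4, had 2821, 2286 and 2362 normalised counts (counts scaled to a common library size) in non-specific IgA replicates 1 to 3. It had 1251, 1087 and 1148 in the IgG libraries and 1205, 1261 and 1228 in the untreated ones. Every IgA library was above every other library. Relative to IgG, GBP1 rose 2.14-fold (log2 fold change 1.10, SE 0.11, edgeR adjusted p 3.73e-05), and it rose by 1.02 (SE 0.11, edgeR adjusted p 5.54e-05) over untreated cells. GBP2, known for restricting viral envelope maturation through furin, had 1434, 1174 and 1333 normalised counts with IgA, 694, 722 and 685 with IgG and 821, 807 and 810 without antibody. The groups did not overlap, and GBP2 rose by 0.91 over IgG (SE 0.11, edgeR adjusted p 0.000129) and by 0.69 over untreated cells (SE 0.11, edgeR adjusted p 0.000745).

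GBP3, a close relative of GBP1, had 1344, 1085 and 1589 normalised counts with non-specific IgA, 833, 922 and 907 with IgG and 937, 933 and 832 without antibody. The IgA libraries spread more widely than the others but all lay above them. The log2 fold change was 0.59 over IgG (SE 0.14, edgeR adjusted p 0.00751) and 0.57 over untreated cells (SE 0.14, edgeR adjusted p 0.00873). Scaling by library size alone, which shifted the median of all genes by -0.23 and -0.21, gave 0.34 for GBP3 in both comparisons (edgeR adjusted p 0.0701 and 0.0692). GBP4 was scarce, with 77.4, 43.0 and 60.0 normalised counts with IgA, 17.7, 22.8 and 19.8 with IgG and 36.3, 53.0 and 23.4 without antibody. It stood 1.57 (SE 0.42) above IgG with an edgeR adjusted p of 0.016, but overlapped the untreated libraries (0.68, SE 0.40, edgeR adjusted p 0.236). The call against IgG was lost in 3 of 9 fits without a library, at an edgeR adjusted p of 0.0582 without IgG replicate 1, 0.0539 without IgG replicate 3 and 0.0557 without IgA replicate 1.

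GBP5, which promotes assembly of the NLRP3 inflammasome, had 842, 688 and 1039 normalised counts with non-specific IgA, 656, 668 and 708 with IgG and 807, 711 and 777 without antibody. These ranges overlapped. The log2 fold change was 0.34 over IgG (SE 0.15, edgeR adjusted p 0.109) and 0.16 over untreated cells (SE 0.14, edgeR adjusted p 0.453). Replicate 3, the library with the high mitochondrial share, was the highest of the IgA libraries, and without it the fold change over untreated cells was -0.002 (edgeR adjusted p 0.994). Without IgA replicate 2, the lowest, the fold change over IgG was 0.47 and passed (edgeR adjusted p 0.0196). GBP1, GBP2 and GBP3 passed in both comparisons without IgA replicate 3, at 1.13, 0.89 and 0.45 over IgG and 1.05, 0.68 and 0.43 over untreated cells (largest edgeR adjusted p 0.0169).

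CIITA moved the other way. It had 19, 43 and 4 raw counts in non-specific IgA replicates 1 to 3, against 65, 85 and 88 with IgG and 89, 101 and 113 in untreated cells. After scaling these were 21.3, 43.0 and 6.32 normalised counts with IgA, 60.7, 77.4 and 96.6 with IgG and 92.4, 84.9 and 91.0 without antibody. All IgA libraries were below all others, and replicate 3 was the lowest. CIITA fell, with a log2 fold change of -1.86 against untreated cells (SE 0.45, edgeR adjusted p 0.0102) and of -1.67 against IgG (SE 0.46, edgeR adjusted p 0.0184). Without IgA replicate 3 the log2 fold changes were -1.46 (edgeR adjusted p 0.00739) and -1.27 (edgeR adjusted p 0.0166). The call against IgG was lost without IgG replicate 2 (edgeR adjusted p 0.0514), IgG replicate 3 (0.0709) or IgA replicate 1 (0.0572), and with limma voom and group weights (adjusted p 0.0504). The call against untreated cells was kept in every fit without a library. DEXI, whose exons overlap those of CIITA, had 333.3 ± 65.0 normalised counts with IgA, 351.2 ± 29.5 with IgG and 335.1 ± 25.1 without antibody (SD, n = 3).

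SOCS1 had 83.0, 93.9 and 116.9 normalised counts with non-specific IgA, 105.5, 70.1 and 104.3 with IgG and 119.4, 100.9 and 116.0 without antibody. The 3 groups overlapped throughout. The log2 fold change was 0.07 over IgG (SE 0.25, edgeR adjusted p 0.876) and -0.20 over untreated cells (SE 0.25, edgeR adjusted p 0.597). The sign against IgG turned to -0.18 with scaling by library size alone, to -0.11 without IgG replicate 2 and to -0.08 without IgA replicate 3.

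IgG was compared with untreated cells as a control for the presence of an antibody. None of the 7 genes passed (0 of 18012 genes were called by edgeR in either direction, 0% of those tested, by DESeq2 0, and 89 had an unadjusted p under 0.05). Largest in size was GBP4 at -0.90 (SE 0.42, unadjusted edgeR p 0.0501, adjusted p 1), followed by SOCS1 at -0.27 (SE 0.25) and GBP2 at -0.22 (SE 0.11, unadjusted edgeR p 0.0707, adjusted p 1). For GBP2, GBP4 and GBP5 all IgG libraries lay below all untreated ones, so that their fold changes over IgG were larger than those over untreated cells. GBP1 (-0.08), GBP3 (-0.02) and CIITA (-0.20) overlapped. The spread of each gene was estimated over all 9 libraries, including those of non-specific IgA. As the replicates of that IgA differed most, a call between IgG and untreated cells was harder to reach. With the 6 libraries of these groups alone, and with limma voom and group weights, 0 genes were called in either direction.

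**Figure D2:**
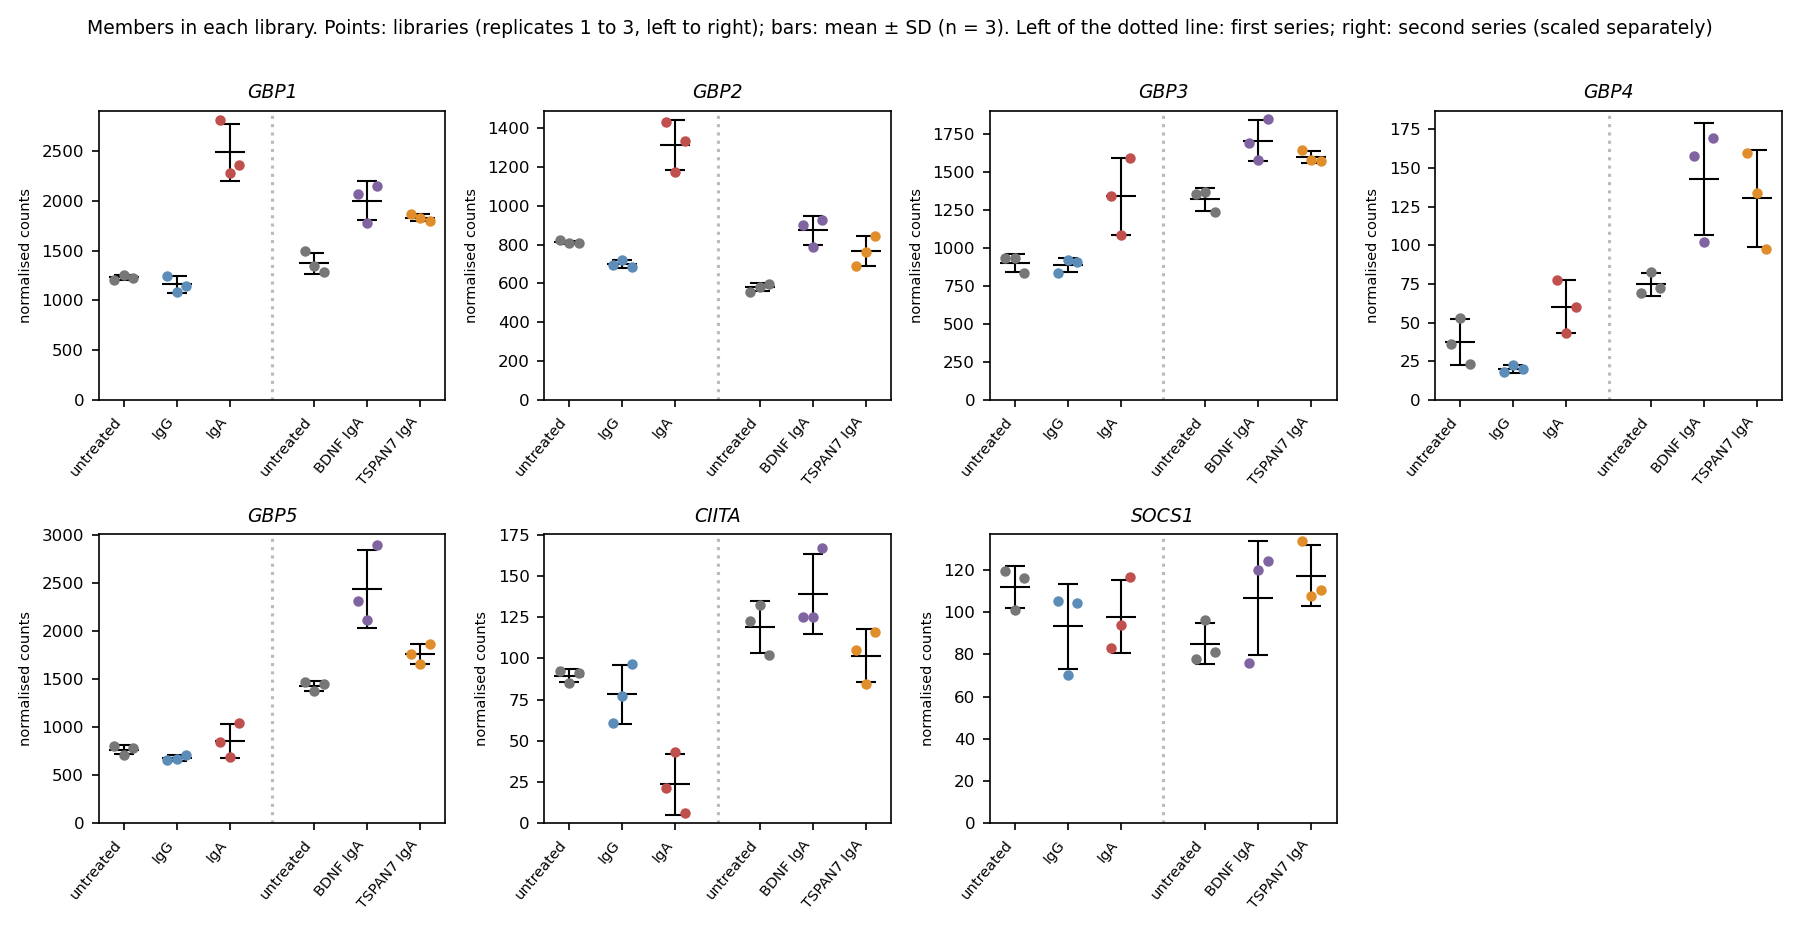
Normalised counts of the 7 genes in each library. Points are libraries, horizontal ticks group means and bars SD (n = 3), with the first series left of the dotted line and the second right of it, each scaled to its own mean library size. With non-specific IgA, GBP1 sits between 2286 and 2821, above all other first-series libraries, and CIITA between 6.32 and 43.0, below all of them.

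In the second series antigen-specific IgA was compared with untreated cells. With BDNF IgA all 5 GBP genes were higher and 0 of the 7 genes were lower. The background among 18732 genes was 4.49% higher and 3.18% lower. The 5 GBP genes were also higher with TSPAN7 IgA, and 0 of the 7 were lower, against a background of 4.46% higher and 4.08% lower. CIITA and SOCS1 did not pass with either antibody. The untreated libraries are shared by the comparisons. The median log2 fold change of the 7 was 0.54 with BDNF IgA and 0.40 with TSPAN7 IgA, and that of all genes 0.00 in both.

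GBP5 had the smallest p-value of the 7 with BDNF IgA. It had 2311, 2111 and 2891 normalised counts with BDNF IgA, 1762, 1659 and 1865 with TSPAN7 IgA and 1469, 1370 and 1448 without antibody. The 3 groups were fully separated. GBP5 rose by 0.77 with BDNF IgA (SE 0.08, edgeR adjusted p 1.85e-06), or 1.71-fold, and by 0.30 with TSPAN7 IgA (SE 0.08, edgeR adjusted p 0.0249), or 1.23-fold. The second call was lost without untreated replicate 1, 2 or 3 or TSPAN7 IgA replicate 1 or 3 (edgeR adjusted p between 0.0565 and 0.121). GBP4, with 157.6, 101.9 and 169.2 normalised counts with BDNF IgA, 159.8, 133.9 and 97.4 with TSPAN7 IgA and 68.9, 82.9 and 72.2 without antibody, had the largest fold changes. They were 0.94 for BDNF IgA (SE 0.20, edgeR adjusted p 0.00551) and 0.81 for TSPAN7 IgA (SE 0.21, edgeR adjusted p 0.0155). The second was lost without untreated replicate 1 or 3 or TSPAN7 IgA replicate 1 or 2 (edgeR adjusted p between 0.0617 and 0.105).

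GBP1 had 2070, 1783 and 2156 normalised counts with BDNF IgA, 1866, 1833 and 1795 with TSPAN7 IgA and 1494, 1342 and 1288 without antibody. With both antibodies every library was above the untreated ones, at log2 fold changes of 0.54 for BDNF IgA (SE 0.07, edgeR adjusted p 1.72e-05) and 0.42 for TSPAN7 IgA (SE 0.07, edgeR adjusted p 0.000387). GBP2 had 903, 789 and 928 normalised counts with BDNF IgA, 691, 760 and 844 with TSPAN7 IgA and 558, 584 and 598 without antibody. It rose by 0.59 (SE 0.08, edgeR adjusted p 6.72e-05) and 0.40 (SE 0.08, edgeR adjusted p 0.00351). GBP3 had 1688, 1582 and 1851 normalised counts with BDNF IgA, 1646, 1580 and 1570 with TSPAN7 IgA and 1355, 1368 and 1235 without antibody. Both antibody groups lay above the untreated one and overlapped each other. It showed the smallest rise of the GBP genes, 0.37 (SE 0.06, edgeR adjusted p 0.000608) for BDNF IgA and 0.28 (SE 0.06, edgeR adjusted p 0.00675) for TSPAN7 IgA. The latter was 0.23 without untreated replicate 3 (edgeR adjusted p 0.0522).

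CIITA had 125.3, 124.9 and 167.3 normalised counts with BDNF IgA, 104.9, 84.3 and 115.8 with TSPAN7 IgA and 122.6, 132.5 and 102.0 without antibody. Each antibody group overlapped the untreated one. The log2 fold change was 0.23 for BDNF IgA (SE 0.17, edgeR adjusted p 0.457) and -0.22 for TSPAN7 IgA (SE 0.17, edgeR adjusted p 0.489). SOCS1 had 75.8, 119.9 and 124.5 normalised counts with BDNF IgA, 133.8, 107.5 and 110.4 with TSPAN7 IgA and 78.0, 96.1 and 81.3 without antibody. With TSPAN7 IgA all libraries were above the untreated ones, but the fold change of 0.46 (SE 0.19) did not pass (edgeR adjusted p 0.14). The fold change with BDNF IgA was 0.33 (SE 0.19, edgeR adjusted p 0.327).

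TSPAN7 IgA was compared directly with BDNF IgA. Of the 7 genes GBP5 was lower with TSPAN7 IgA and 0 were higher, where 4.50% of all genes were lower and 3.42% higher. Its log2 fold change was -0.47 (SE 0.08, edgeR adjusted p 0.00096), and no fit without a library lost this call. CIITA was lower in all TSPAN7 IgA libraries than in all BDNF IgA libraries, with a log2 fold change of -0.46 that did not pass (SE 0.17, edgeR adjusted p 0.108). The log2 fold changes of GBP1 (-0.13), GBP2 (-0.19), GBP3 (-0.10) and GBP4 (-0.13) did not pass either, and SOCS1 was at 0.14 (edgeR adjusted p 0.727). BDNF IgA replicate 2 had the lowest count of that group in all 5 GBP genes. Without it GBP1 (-0.21, edgeR adjusted p 0.0165), GBP2 (-0.26, edgeR adjusted p 0.0224) and CIITA (-0.53, edgeR adjusted p 0.0445) were also called lower.

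**Figure D3:**
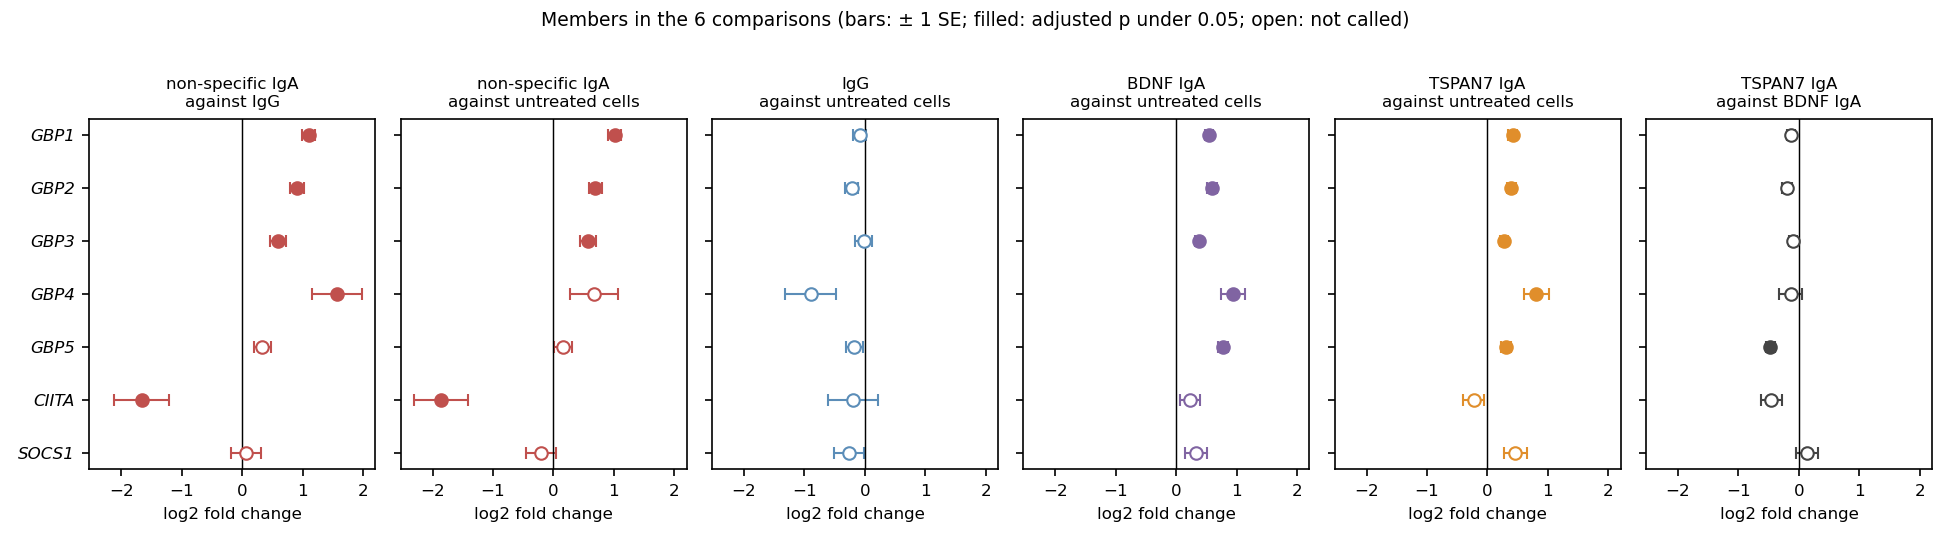
Log2 fold changes of the 7 genes in the 6 comparisons. Bars are 1 SE on either side and filled points have an adjusted p under 0.05. The GBP points lie right of 0 with each kind of IgA, CIITA lies at -1.67 and -1.86 with non-specific IgA, and in the comparison of TSPAN7 IgA with BDNF IgA the 1 filled point is GBP5 at -0.47.

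The 7 genes were also described by how they varied over the 9 libraries of each series, as Pearson correlations of log2 CPM, with no test, since the libraries share their groups. The 10 pairs of GBP genes correlated at 0.57 to 0.97 in the first series and at 0.75 to 0.97 in the second. CIITA correlated with the GBP genes at -0.95 to -0.66 in the first series and at 0.13 to 0.56 in the second. For SOCS1 the values were -0.10 to 0.41 and 0.38 to 0.58. Among 13515 genes with at least 50 normalised counts in the first series, the pattern most like that of GBP1 was that of DLGAP1 (r = 0.996), that most like GBP2 was CASP4 (0.992), and that most like CIITA was ELP3 (0.997), each over 9 libraries. The closest gene to SOCS1 reached 0.875 (JPX). In the second series, among 14083 genes, the closest were SHISA5 for GBP1 (0.989), PTPN12 for GBP2 (0.983), TNFAIP2 for GBP3 (0.986), FAM189B for GBP4 (0.986) and IFITM2 for GBP5 (0.992).

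Other genes of the family and the cluster were read from the same fits. GBP1P1, the pseudogene of GBP1, rose from 24.1 to 66.8 normalised counts with BDNF IgA (log2 fold change 1.47, SE 0.26, edgeR adjusted p 0.00113) and to 62.2 with TSPAN7 IgA (1.37, SE 0.27, edgeR adjusted p 0.00211). It shares 162 distinct 75-base stretches with GBP1, and its counts may include reads of that gene. GBP6, a further member of the cluster, fell with non-specific IgA against untreated cells (-1.32, SE 0.36, edgeR adjusted p 0.0171), a call lost without untreated replicate 2 or 3 (edgeR adjusted p between 0.057 and 0.0643). GBP7 had at most 24 counts in any library. Of 13 neighbouring genes tested on both chromosomes, 3 were higher and 1 lower with non-specific IgA in each of its comparisons, beside 12.6% and 11.6% of all genes against IgG and 12.9% and 12.1% against untreated cells. The higher ones were LRRC8C on chromosome 1 (0.94 over IgG, edgeR adjusted p 0.00699), LITAF on chromosome 16 (0.65, edgeR adjusted p 0.000542, and 0.41 with scaling by library size alone) and ZNF326 (0.50, edgeR adjusted p 0.0088). Scaling by library size alone gave 0.26 for ZNF326 (edgeR adjusted p 0.181). The lower one was RBMXL1 (-1.09, edgeR adjusted p 7.57e-05). With BDNF IgA 2 were higher and 1 lower, beside 4.49% and 3.18% of all genes, and with TSPAN7 IgA 2 were higher and 1 lower, beside 4.46% and 4.08%. RMI2, which surrounds SOCS1, was among them with BDNF IgA (0.48, SE 0.15, edgeR adjusted p 0.0495), and kept its call without BDNF IgA replicate 2 or TSPAN7 IgA replicate 3, but in none of the 7 other fits without a library (edgeR adjusted p between 0.0553 and 0.272).

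CIITA acts on the MHC class II genes, of which 11 of 15 listed genes and regulators were tested in each series. With non-specific IgA 0 were higher and 1 was lower in both comparisons, where 11.6% and 12.1% of all genes were lower. That gene was HLA-DMA, whose product helps to load peptides on class II molecules. It had 178.3, 113.9 and 115.3 normalised counts with IgA, 242.7, 266.8 and 266.8 with IgG and 197.3, 207.7 and 220.7 without antibody. Its log2 fold change was -0.93 against IgG (SE 0.20, edgeR adjusted p 0.00595) and -0.61 against untreated cells (SE 0.20, edgeR adjusted p 0.0412), and the second call was lost in 8 of the 9 fits without a library, all but that without IgA replicate 1 (edgeR adjusted p between 0.0528 and 0.126). CD74, the invariant chain, was at -0.12 and -0.09 and did not pass. The median of the 11 was -0.36 against IgG and -0.23 against untreated cells, beside -0.02 and -0.01 for all genes.

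With BDNF IgA 2 of the 11 class II genes were higher and 0 lower, where 4.49% of all genes were higher. They were HLA-DMA (0.71, SE 0.14, edgeR adjusted p 0.00306), which no fit without a library lost, and CD74 (0.31, SE 0.09, edgeR adjusted p 0.0411). The CD74 call was lost in 7 of 9 such fits, and kept without BDNF IgA replicate 2 or TSPAN7 IgA replicate 3 (edgeR adjusted p between 0.0511 and 0.272 in the others). With TSPAN7 IgA 0 of 11 passed in either direction, with a median of -0.13. In the direct comparison 4 of 11 were lower with TSPAN7 IgA and 0 higher, with a median of -0.52, where 4.50% of all genes were lower and 3.42% higher. CD74 was at -0.44 (SE 0.09, edgeR adjusted p 0.0052) and kept its call without any library. HLA-DRA, the alpha chain of HLA-DR, was at -0.65 (SE 0.18, edgeR adjusted p 0.032), HLA-DPB1 at -0.77 (SE 0.23, edgeR adjusted p 0.046) and HLA-DMA at -0.59 (SE 0.14, edgeR adjusted p 0.012). HLA-DMA lost its call without BDNF IgA replicate 1 or 3 or TSPAN7 IgA replicate 2 (edgeR adjusted p between 0.0523 and 0.0992), HLA-DRA also without TSPAN7 IgA replicate 1 or 3 (0.0691 to 0.233), and HLA-DPB1 in all such fits except those without untreated replicate 3 or BDNF IgA replicate 2 (0.0578 to 0.443). BDNF IgA replicate 3, the highest library for CIITA, was also the highest for HLA-DRA, HLA-DPB1, HLA-DMA and CD74 within that group. This was not particular to them, since the same library was the highest of the group for all 5 GBP genes and for SOCS1. The RFX genes RFX5, RFXAP and RFXANK did not pass in any comparison.

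**Figure D4:**
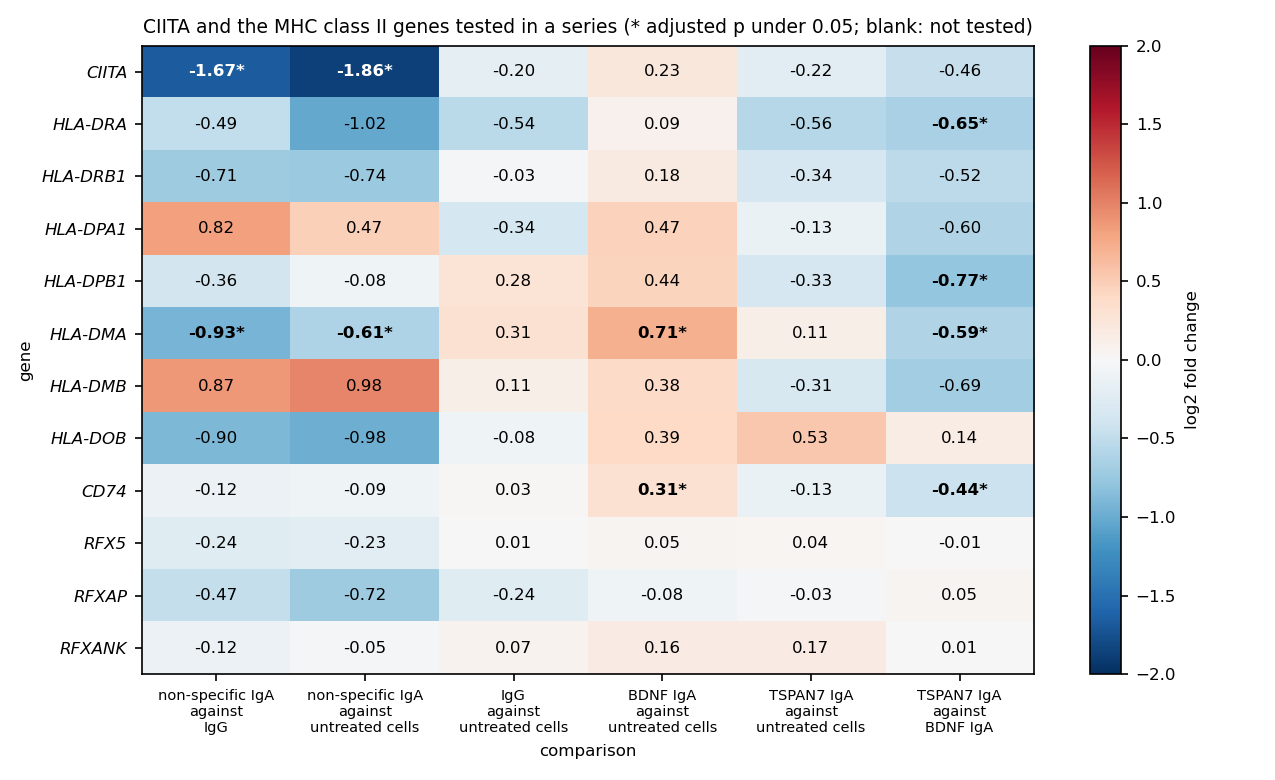
Log2 fold changes of CIITA and the 11 MHC class II genes and regulators tested, with genes in rows and the 6 comparisons in columns. Red is higher and blue lower on a scale from -2 to 2, and an asterisk marks an adjusted p under 0.05. The column of TSPAN7 IgA against BDNF IgA holds 4 marked decreases, and CIITA is marked at -1.67 and -1.86 with non-specific IgA.

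SOCS1 belongs to a family of feedback inhibitors, of which 7 other members were tested. SOCS3, the inhibitor of gp130 and STAT3 signalling, fell with every kind of IgA. It had 1029, 1100 and 420 normalised counts with non-specific IgA, 2108, 2031 and 2048 with IgG and 1984, 1983 and 2024 without antibody, where replicate 3 of the IgA libraries was by far the lowest. Its log2 fold change was -1.27 against IgG (SE 0.25, edgeR adjusted p 0.00286) and -1.22 against untreated cells (SE 0.24, edgeR adjusted p 0.00331), and no fit without a library lost either call. In the second series SOCS3 had 1597, 1498 and 1709 normalised counts with BDNF IgA, 1335, 1256 and 1241 with TSPAN7 IgA and 1680, 1899 and 2003 without antibody. Every TSPAN7 IgA library was below the untreated ones (log2 fold change -0.54, SE 0.07, edgeR adjusted p 1.26e-05). BDNF IgA gave -0.22 (SE 0.07, edgeR adjusted p 0.0449), the groups overlapped, and the call was lost without untreated replicate 2 or 3, BDNF IgA replicate 1 or 2 or TSPAN7 IgA replicate 2 or 3 (edgeR adjusted p between 0.0577 and 0.217).

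Calls among the other members were few. With non-specific IgA SOCS4 fell (-0.70 against IgG, SE 0.09, edgeR adjusted p 0.000289) and SOCS6 rose (0.87, SE 0.13, edgeR adjusted p 0.000595), so that 1 of the 7 was higher and 2 were lower, where 12.6% and 11.6% of all genes were. With BDNF IgA 1 was higher and 1 lower (4.49% and 3.18% of all genes), the higher one being CISH (0.60, SE 0.14, edgeR adjusted p 0.0101), whose call was lost without untreated replicate 2 or BDNF IgA replicate 1 or 3 (edgeR adjusted p between 0.0548 and 0.0605). With TSPAN7 IgA SOCS2 was the 1 that rose (0.54, SE 0.14, edgeR adjusted p 0.0194), and it lost its call without untreated replicate 2 or 3 or TSPAN7 IgA replicate 1 or 3 (0.0709 to 0.0887). Of 10 partners and targets of SOCS1 tested, 2 were higher and 2 lower with non-specific IgA against IgG (12.6% and 11.6% of all genes), and 1 higher and 1 lower against untreated cells (12.9% and 12.1%). IRS1, an adaptor of the insulin receptor, was higher in both (0.63 and 0.79, edgeR adjusted p 0.00305 and 0.000682), and with scaling by library size alone it was at 0.41 over IgG (edgeR adjusted p 0.081). CUL5, a cullin of the SOCS ubiquitin ligase, was lower against untreated cells (-0.73, edgeR adjusted p 0.0159), a call lost without untreated replicate 2 or IgA replicate 1 (0.0548 to 0.0656). CUL5 (-0.63), TIRAP (-0.92) and TCEB1 (0.36) were called against IgG but lost their calls in 6, 8 and 5 of the 9 fits without a library, each of them without IgG replicate 1, 2 or 3 (edgeR adjusted p between 0.0504 and 0.127 over these fits).

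Upstream of the 7 genes, 11 genes of the interferon gamma receptor pathway were tested. With non-specific IgA 6 were higher against IgG, 7 against untreated cells and 0 lower in either, where 12.6% and 12.9% of all genes were higher. The 11 included genes whose products dampen the pathway (PTPN2, PTPN11, PIAS1 and PIAS3), so that the count does not measure its activity. Among the called genes were IRF2, STAT3 and JAK1 in both comparisons and PTPN11 against untreated cells. PTPN11 lost its call in 7 of 9 fits without a library, and JAK1 lost that against IgG in 3. IRF1, which binds interferon response elements, rose by 1.19 over IgG (SE 0.24, edgeR adjusted p 0.00355), and the receptor chains IFNGR1 and IFNGR2 by 0.95 (SE 0.11, edgeR adjusted p 8.74e-05) and 0.82 (SE 0.12, edgeR adjusted p 0.000695). IRF1 had 3032, 1894 and 4415 normalised counts with non-specific IgA, 1124, 1337 and 1636 with IgG and 1377, 1138 and 1379 without antibody. The IgA libraries all lay above the others and were widely spread, with replicate 3 the highest. In the second series 1 pathway gene was higher with BDNF IgA and 2 with TSPAN7 IgA, and 0 were lower, where 4.49% and 4.46% of all genes were higher. IFNGR1 had 1704, 1722 and 1849 normalised counts with BDNF IgA, 1718, 1835 and 1905 with TSPAN7 IgA and 1399, 1293 and 1430 without antibody. Both antibody groups lay above the untreated one, at 0.36 for BDNF IgA (SE 0.06, edgeR adjusted p 0.000542) and 0.40 for TSPAN7 IgA (SE 0.06, edgeR adjusted p 0.000103). IRF1 was called with TSPAN7 IgA (0.17, SE 0.05, edgeR adjusted p 0.0413), but not in 7 of the 9 fits without a library (all but those without BDNF IgA replicate 2 or 3, edgeR adjusted p between 0.0549 and 0.159). JAK2 did not pass in any comparison.

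**Figure D5:**
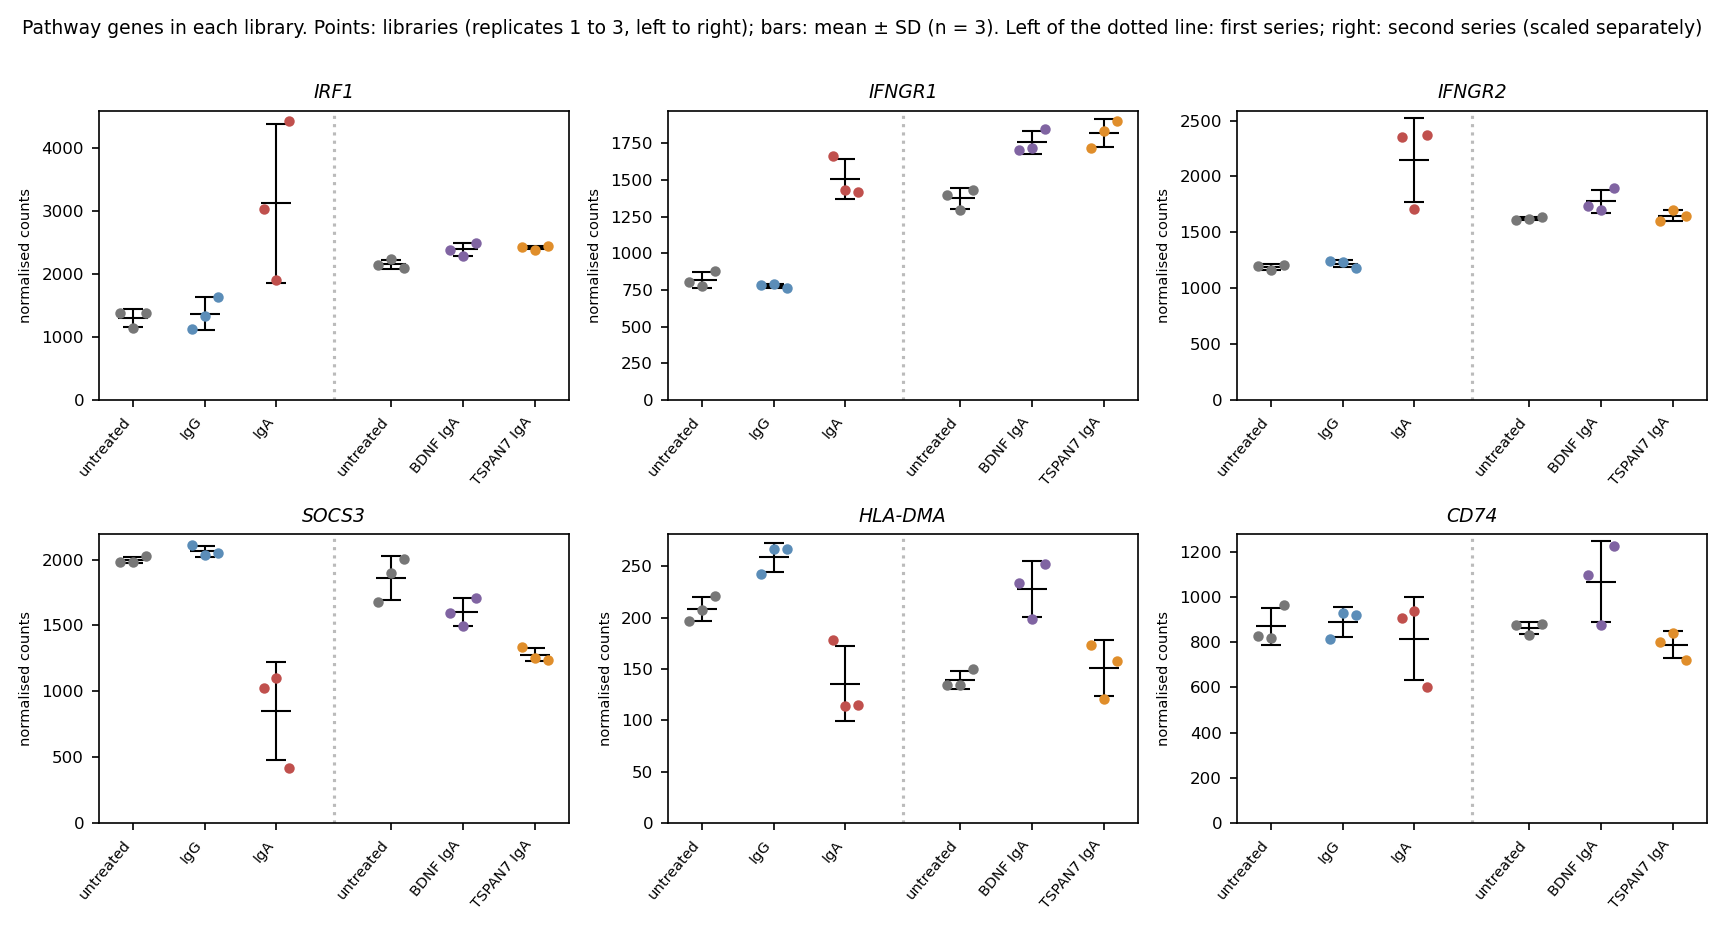
Normalised counts of IRF1, IFNGR1, IFNGR2, SOCS3, HLA-DMA and CD74 in each library, with the first series left of the dotted line and the second right of it, each scaled separately. Points are libraries, ticks means and bars SD (n = 3). IFNGR1 lies between 1704 and 1905 with the antigen-specific antibodies against at most 1430 without, and SOCS3 is lower with every IgA, most of all in non-specific IgA replicate 3 (420).

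Other interferon gamma effectors and inflammasome partners gave the setting in which the GBP genes rose. Of 16 effectors listed, 12 were tested. CXCL9 (0 counts in every library), CXCL11, NOS2 and PDCD1LG2 (at most 14 counts) did not pass the filter on low counts. Of the 12, 5 were higher with non-specific IgA in each comparison, 7 with BDNF IgA and 9 with TSPAN7 IgA, and 0 were lower. Among all genes 12.6% were higher against IgG, 12.9% against untreated cells, 4.49% with BDNF IgA and 4.46% with TSPAN7 IgA. TAP1, a peptide transporter of the class I pathway, rose with all of them, by 0.99 over IgG (edgeR adjusted p 0.00405), by 0.56 with BDNF IgA (edgeR adjusted p 4.36e-05) and by 0.52 with TSPAN7 IgA (edgeR adjusted p 8.87e-05). ICAM1, an adhesion molecule, rose by 2.63 with non-specific IgA over IgG (SE 0.18, edgeR adjusted p 1.83e-06). The effectors CD274, PSMB8 and PSMB10 were not called with that IgA, but their means were lower with it. They averaged 17.5, 559.9 and 116.2 normalised counts with non-specific IgA, 36.1, 674.7 and 141.6 with IgG and 29.8, 714.6 and 188.1 without antibody. The chemokine CXCL10 rose by 1.52 with BDNF IgA (SE 0.22, edgeR adjusted p 0.000132) and by 1.74 with TSPAN7 IgA (SE 0.22, edgeR adjusted p 1.77e-05). Of 12 inflammasome and pyroptosis genes listed, 7 were tested. NLRP3, AIM2, NLRC4, CASP5 and PYHIN1 had at most 5 counts and did not pass the filter on low counts. Of the 7, 3 were higher with non-specific IgA in each comparison (12.6% and 12.9% of all genes). Among those not called, CASP1 averaged 117.6 normalised counts with it, 151.8 with IgG and 160.9 without antibody. The mean of PYCARD was also lowest with it, that of GSDMD lay between the other groups and that of IFI16 was highest. The cytokine gene IL1B had 54, 41 and 63 counts with IgA, 0, 1 and 0 with IgG and 0, 3 and 3 without antibody (edgeR adjusted p 0.000252 and 0.000513). IL18 was at 1.13 over IgG (edgeR adjusted p 0.000109). CASP4, which GBP1 recruits, was at 0.43 over IgG (edgeR adjusted p 0.00868), and at 0.20 (edgeR adjusted p 0.291) with scaling by library size alone. CASP4 was also called against untreated cells (0.33, edgeR adjusted p 0.0309), and lost that call without untreated replicate 1, 2 or 3, IgG replicate 1 or 2 or IgA replicate 1 (edgeR adjusted p between 0.0543 and 0.109). With BDNF IgA 2 were higher and with TSPAN7 IgA 4 (4.49% and 4.46% of all genes). IFI16, a sensor of DNA, rose by 0.87 with BDNF IgA (edgeR adjusted p 6.32e-08) and by 0.55 with TSPAN7 IgA (edgeR adjusted p 4.52e-05).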

How the data were processed

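RNA was sequenced from OVCAR3 cells in 18 libraries. Per the study's methods, the authors removed adapters with cutadapt, used STAR with GRCh37 for alignment and featureCounts for counts per gene, while the submitters' processing notes name HTSeq 0.6.1, cutadapt 1.8.1 and hg19. The strand setting was not given in the sources used here. The deposited values are raw counts per gene symbol. Exact duplicate rows of the second series (2055, none of them of the 7 genes) were dropped.

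Each series was fitted with its 9 libraries and group as the only term, using edgeR 4.0.16 in R 4.3.3 (filterByExpr, TMM scaling, quasi-likelihood F test), and p-values were adjusted over all genes tested. SE was obtained as the size of the log2 fold change over the root of F. Replicate libraries differed by more than sampling noise (chi-square per degree of freedom at least 4.16), and none was treated as a copy. Counts without molecular identifiers are not independent molecules.

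The 7 genes and the lists were chosen with earlier results of these data known. Listed genes could be named if called, and where more than 3 were called in 1 direction, from the 3 largest changes among genes reaching 50 normalised counts on average in a group. Listed genes that did not pass the filter, CASP1, PYCARD, GSDMD and the pathway genes not described with values were named after their values were seen. So were all 4 class II genes of the direct comparison, JAK2, the RFX genes, CASP4, CD274, PSMB8 and PSMB10. So was the selection among the most alike genes, of which 3 were found per gene and series. Not every called gene is named, and some listed genes are not reported here. The fit was tested on simulated data. Alternatives were DESeq2 1.42.0, limma 3.58.1 voom with group weights, 2 other scalings, 2 other filters on low counts, the table without mitochondrial and ribosomal RNA genes, the 6 libraries compared, a replicate block, an adjusted p under 0.01, each library left out, and another transcript length.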

Additional observations from a re-analysis of the deposited data

How the results depend on the processing

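Of 798 alternative values of the 7 genes over the 6 comparisons, 757 kept their direction and their side of the threshold, 25 lost a call, 4 gained one and 12 changed sign. Only values of genes called in the main fit could lose a call, and IgG against untreated cells had none. The calls with BDNF IgA changed under none of them, and DESeq2, RLE scaling and the replicate block changed no call of the 7. Deviations from the group mean correlated at -0.069 to 0.247 between libraries of equal replicate number, highest between untreated and IgG replicate 3. In each group of the first series the mitochondrial share was highest in replicate 3 and lowest in replicate 2. Whether equal numbers were handled together is not stated, and these values do not settle it. With the replicate block 4 genes were higher and 1 lower in non-specific IgA against IgG, 3 and 1 against untreated cells, 5 and 0 with each antigen-specific IgA, and GBP5 was at -0.46 between them (edgeR adjusted p 7.09e-05).

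With non-specific IgA against IgG, 0 of the 7 genes were lower by limma voom, with the 6 libraries compared (CIITA, edgeR adjusted p 0.0571) and at an adjusted p under 0.01, and 0 to 1 in the fits without a replicate. Against untreated cells 0 were lower at that stricter threshold. With TSPAN7 IgA against untreated cells 3 were higher at it, and 2 to 5 without a replicate. Between the antigen-specific antibodies 1 to 4 were lower without a replicate. Scaling by library size alone gave 19.4% of all calls as higher against IgG (51.9% with TMM) and 23.3% against untreated cells (51.4%). It also gave 67.3% with BDNF IgA (58.5%), 53.4% with TSPAN7 IgA (52.2%) and 33.9% between them (43.2%). It turned GBP5 against untreated cells to -0.07, SOCS1 against IgG to -0.18 and GBP3 with IgG against untreated cells to 0.004. Without a replicate, changing sign, SOCS1 against IgG ranged from -0.109 to 0.168, GBP5 against untreated cells from -0.002 to 0.293, GBP3 with IgG against untreated cells from -0.079 to 0.023, and, between the antigen-specific antibodies, SOCS1 from -0.058 to 0.263 and GBP4 from -0.321 to 0.039, none of them called. The cause was not tested.

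The number of all genes called moved more than the calls of the 7. Against IgG it ranged from 873 to 2645 higher and from 927 to 3631 lower, and against untreated cells from 1001 to 2676 and from 964 to 3296. For the second series it ranged from 403 to 1505 and 235 to 1293 with BDNF IgA, 429 to 1177 and 328 to 1168 with TSPAN7 IgA, and 196 to 1554 and 286 to 1722 between them. With IgG against untreated cells 2 genes were called lower without a filter on low counts. At 4 to 178 counts a library, GBP4, CIITA and SOCS1 were measured least precisely.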
